A study of Mus musculus with 7 samples.

Results

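The G1 cyclins and their kinases were examined in C2C12 cells, an established mouse myoblast line, after siRNA knockdown of 1 of 2 histone H3 lysine 9 methyltransferases. The genes were listed by symbol: the D-type cyclins Ccnd1, Ccnd2 and Ccnd3, the E-type cyclins Ccne1 and Ccne2, and the kinases Cdk2, Cdk4 and Cdk6. Each was read from its probe set with 1 symbol and the highest mean signal. Of the 8 genes, 7 had such a probe set among 22180 genes with a value. Ccne2 lay only in a probe set annotated to a second gene as well, so it has no value here. There were 3 arrays of cells transfected with siRNA against G9a (siG9a), 2 with siRNA against GLP (siGLP) and 2 with control siRNA (Control), with 1 sample per array. All groups were unmodified C2C12 cells in growth medium with 15% fetal bovine serum, and each 100 mm dish received 0.2 µmol of siRNA. The study asked whether G9a (gene Ehmt2) and GLP (gene Ehmt1), which are related enzymes, act differently in myoblasts. Whether the replicates came from separate cultures is not stated, so each p-value reflects the variation among these arrays alone, which may be technical, and the few arrays limit the precision.

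Cells commit to a round of division in G1. Growth factors raise the D-type cyclins, which bind Cdk4 and Cdk6 and begin to phosphorylate the retinoblastoma protein and its relatives, the pocket proteins. This frees E2F factors, which switch on cyclin E and the genes of DNA replication, and cyclin E with Cdk2 then drives entry into S phase. CDK inhibitors such as p21 and p27 oppose these kinases. In myoblasts cyclin D1 with its kinase restrains muscle gene activation, and withdrawal from the cycle precedes fusion into myotubes. Much of this control acts on proteins, through phosphorylation and degradation, which an RNA array does not measure.

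RefSeq promoter sequences on build GRCm38.p6 were matched by symbol for 5 of the 8 genes (Ccnd3, Ccne1, Cdk2, Cdk4 and Cdk6). The 250 bases before the start are shown for Cdk2, Cdk4 and Ccne1, the matched genes whose siG9a arrays all lay below the Control arrays. They are written 5′ to 3′ on the gene's strand, and capitals mark an exact match to an E2F pattern (TTTCCCGC, TTTCGCGC, TTTGCCGC or TTTGGCGC) or to the E-box CACGTG, which Myc and its partner Max can bind, on either strand.
Cdk2, chr10:128705052-128705301, minus strand: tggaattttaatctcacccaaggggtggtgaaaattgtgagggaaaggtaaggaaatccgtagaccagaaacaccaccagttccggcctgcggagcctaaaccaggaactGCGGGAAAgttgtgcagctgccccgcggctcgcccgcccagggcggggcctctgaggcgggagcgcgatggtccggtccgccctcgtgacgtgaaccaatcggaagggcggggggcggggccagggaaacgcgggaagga
Cdk4, chr10:127063285-127063534, plus strand: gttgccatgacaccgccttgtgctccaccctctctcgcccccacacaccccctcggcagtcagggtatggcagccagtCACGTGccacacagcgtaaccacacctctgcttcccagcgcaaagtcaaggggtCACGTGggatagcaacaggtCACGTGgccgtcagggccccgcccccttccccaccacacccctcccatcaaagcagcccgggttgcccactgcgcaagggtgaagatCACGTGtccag
Ccne1, chr7:38107491-38107740, minus strand: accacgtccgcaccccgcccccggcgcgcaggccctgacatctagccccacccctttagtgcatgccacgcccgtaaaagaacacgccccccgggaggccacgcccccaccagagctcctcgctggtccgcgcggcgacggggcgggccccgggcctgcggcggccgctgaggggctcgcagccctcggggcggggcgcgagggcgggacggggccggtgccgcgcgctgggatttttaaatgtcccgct
The Cdk2 window held 1 E2F pattern, whose first base lay 140 bases before the start, and 1.86% of 32851 promoter windows of that length held any of the 4 patterns. The Cdk4 window held 4 CACGTG matches, an element present in 6.02% of windows. Of the windows not shown, that of Cdk6, which lay above Control in both knockdowns, held 1 CACGTG and no E2F pattern. Those of Ccnd3 held no E2F pattern or CACGTG. The GC box GGGCGG, searched on both strands and not capitalised, occurred 5 times in Cdk2, 4 times in Ccne1 and 1 time in Cdk4, and in 32.7% of all windows at least once. No E2F pattern or CACGTG was found in the Ccne1 window, which says only that these letters are not in this stretch. These matches describe the sequence, and binding was not measured here.

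The knockdowns were checked on the targeted transcripts. Ehmt2 had log2 signals of 6.31, 6.14 and 5.99 on the siG9a arrays, against 7.56 and 7.46 on the Control arrays, and fell to 38.8% of the Control level (limma, Benjamini-Hochberg adjusted p = 0.0308). Without any 1 of the 7 arrays the Ehmt2 log2 difference stayed between -1.45 and -1.29, but limma adjusted p was then 0.0787 to 0.426. Ehmt1 had 5.73 and 6.13 on the siGLP arrays, against 6.71 and 6.73 in Control. It stood at 58.0% of Control without passing over all genes (limma adjusted p = 0.197). Median log2 signals of all probe sets were 4.54 to 4.59 in the 7 arrays. All 11 measured myoblast markers, Myod1, Pax7 and Cdh15 among them, lay above that median on every array. Their mean log2 signal was 7.99 to 8.08 in siG9a, 7.98 to 8.10 in siGLP and 8.18 to 8.23 in Control, so both knockdowns lay below Control, and the part of this in the results was not tested. At an unadjusted limma p under 0.05, 5 of the 11 were lower and 0 higher in siG9a, where 4.57% of all genes were lower. In siGLP 3 were lower and 0 higher, where 4.13% of all genes were lower. The log2 difference of Myod1 was -0.68 in siG9a and -0.0025 in siGLP, and that of Cdh15 was -0.51 in both. For 27 myotube markers the mean was 5.07 to 5.15 in siG9a, 4.96 to 5.04 in siGLP and 5.13 to 5.21 in Control, with 17 of them above the median on every array. Of the markers of other cell types, 1 of 8 leukocyte, 0 of 6 endothelial, 2 of 5 epithelial, 2 of 6 adipocyte and 2 of 6 neuronal genes lay above the median on every array. The adipocyte mean was 4.415 to 4.49 in siG9a, 4.58 to 4.98 in siGLP and 4.35 to 4.408 in Control. In siGLP most of it came from Fabp4 (log2 difference 2.03, SD 1.36 over the siGLP arrays), while the other 5 genes differed by 0.021 to 0.17. The epithelial mean was 4.85 to 4.99 in siG9a, 5.10 to 5.14 in siGLP and 4.998 to 5.024 in Control. Among the leukocyte markers Cd68 stood at 0.62 in siG9a and 0.54 in siGLP. None of these markers passed over all genes in limma, and their part in the results was not tested. In a bulk sample fewer cells in a phase of the cycle and less RNA per cell cannot be told apart.

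All 7 genes were clearly on the arrays, with log2 signals above the upper quartile of all probe sets (6.85 to 6.90) on every array. None passed the threshold in any of the 3 comparisons, which was a Benjamini-Hochberg adjusted p under 0.05 over all genes in limma. In siG9a against Control 0 of 7 passed, where 0.0271% of all genes passed, and 1 of 7 (Cdk2, lower) had an unadjusted p under 0.05, where 10.5% of all genes did (4.57% lower and 5.95% higher). In siGLP against Control 0 of 7 passed (all genes, 0.00451%), and 2 of 7, Ccnd3 lower and Cdk6 higher, had an unadjusted p under 0.05 (all genes, 8.63%, with 4.13% lower and 4.51% higher). In siGLP against siG9a 0 of 7 passed (all genes, 0.234%), and 2 of 7, Ccnd3 lower and Cdk2 higher, had an unadjusted p under 0.05 (all genes, 12.4%). The median log2 difference of the 7 genes was -0.048 in siG9a and -0.017 in siGLP, where all genes had medians of 0.0052 and 0.0015. The 2 comparisons with Control share the same 2 Control arrays, so they are not independent of each other.

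**Figure D1:**
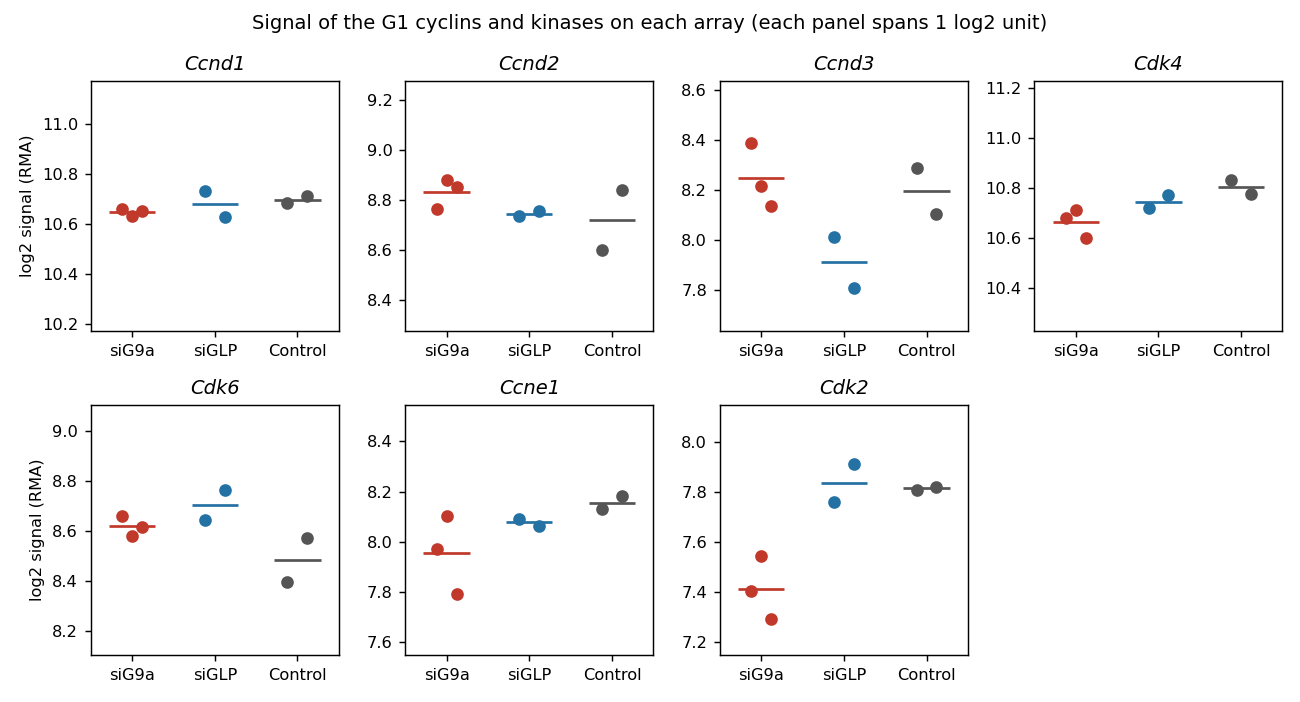
Log2 signal (RMA) of each of the 7 genes, 1 point per array and a bar for the group mean, with siG9a (3 arrays), siGLP (2) and Control (2) from left to right. Every panel spans the same range of 1 log2 unit. The siG9a points of Cdk2 (7.29 to 7.55) lie apart from all others (7.76 to 7.91), and Ccnd1 varies least (10.63 to 10.73).

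Among the D-type cyclins, which sense growth factors, Ccnd1 was the steadiest. Its log2 signal was 10.66, 10.63 and 10.65 in siG9a, 10.73 and 10.63 in siGLP, and 10.68 and 10.71 in Control. All siG9a arrays lay below both Control arrays, yet the difference was only -0.048 (SE 0.062, 95% interval -0.20 to 0.10, limma adjusted p = 0.825). In siGLP the arrays lay on both sides of Control and the difference was -0.017 (SE 0.068, 95% interval -0.18 to 0.15, limma adjusted p = 0.975). On the linear scale these intervals run from 87.3% to 107% of Control in siG9a and from 88.4% to 111% in siGLP.

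Ccnd2, the second D-type cyclin, had log2 signals of 8.76, 8.88 and 8.85 in siG9a, 8.74 and 8.76 in siGLP, and 8.60 and 8.84 in Control. The 2 Control arrays were farther apart from each other than any siG9a or siGLP arrays, and both knockdowns overlapped them. The difference was 0.11 in siG9a (SE 0.086, 95% interval -0.094 to 0.32, limma adjusted p = 0.70). In siGLP it was 0.025 (SE 0.095, 95% interval -0.20 to 0.25, limma adjusted p = 0.972).

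Ccnd3 is the D-type cyclin known to persist as myoblasts leave the cycle and form myotubes. Its log2 signal was 8.39, 8.22 and 8.14 in siG9a, 8.01 and 7.81 in siGLP, and 8.29 and 8.10 in Control. Both siGLP arrays lay below every other array, while siG9a and Control overlapped. In siGLP the signal stood at 82.2% of Control, a log2 difference of -0.28 (SE 0.12, 95% interval -0.56 to -0.0032, unadjusted p = 0.0481, limma adjusted p = 0.572). In siG9a the difference was 0.052 (SE 0.11, 95% interval -0.20 to 0.31, limma adjusted p = 0.898). Set directly against siG9a, siGLP stood at -0.34 (SE 0.11, 95% interval -0.59 to -0.079, limma adjusted p = 0.28), so a difference between the knockdowns in cyclin D3 RNA did not pass.

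Cdk4 and Cdk6 encode the partner kinases of the D-type cyclins. Cdk4 had log2 signals of 10.68, 10.71 and 10.60 in siG9a, 10.72 and 10.77 in siGLP, and 10.83 and 10.77 in Control. All siG9a arrays and both siGLP arrays lay below the Control arrays, with the upper siGLP array (10.771) just under the lower Control array (10.773). Cdk4 stood at 90.8% of Control in siG9a (log2 difference -0.14, SE 0.066, 95% interval -0.29 to 0.016, limma adjusted p = 0.522). It stood at 96.1% in siGLP (-0.058, SE 0.072, 95% interval -0.23 to 0.11, limma adjusted p = 0.88).

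Cdk6 lay on the other side of Control. Its log2 signal was 8.66, 8.58 and 8.62 in siG9a, 8.65 and 8.76 in siGLP, and 8.40 and 8.57 in Control. Every knockdown array lay above both Control arrays, though siG9a 2 exceeded Control 2 by little. Cdk6 stood at 117% of Control in siGLP (log2 difference 0.22, SE 0.086, 95% interval 0.016 to 0.43, unadjusted p = 0.0384, limma adjusted p = 0.537). It stood at 110% in siG9a (0.14, SE 0.079, 95% interval -0.051 to 0.32, limma adjusted p = 0.609). Set directly against siG9a, siGLP stood at 0.085 (SE 0.079, limma adjusted p = 0.713).

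Cyclin E and Cdk2 act after the D-type cyclins, at the step into S phase. Ccne1 had log2 signals of 7.97, 8.10 and 7.79 in siG9a, 8.09 and 8.06 in siGLP, and 8.13 and 8.18 in Control. All 5 knockdown arrays lay below both Control arrays, with siG9a 3 the lowest. The difference was -0.20 in siG9a (87.0% of Control, SE 0.096, 95% interval -0.43 to 0.028, limma adjusted p = 0.534). In siGLP it was -0.078 (94.7% of Control, SE 0.11, 95% interval -0.33 to 0.17, limma adjusted p = 0.89).

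Cdk2, the kinase driven by cyclin E, had the largest difference of the 7 genes. Its log2 signal was 7.41, 7.55 and 7.29 in siG9a, 7.76 and 7.91 in siGLP, and 7.81 and 7.82 in Control. The siG9a arrays lay below all the others, and the siGLP arrays lay on both sides of Control. Cdk2 stood at 75.8% of Control in siG9a, a log2 difference of -0.40 (SE 0.092, 95% interval -0.62 to -0.18, unadjusted p = 0.00345). It ranked 375 by p among 22180 genes and did not pass (limma adjusted p = 0.204). In siGLP the difference was 0.022 (SE 0.10, 95% interval -0.22 to 0.26, limma adjusted p = 0.978). The direct comparison put siGLP at 134% of siG9a (0.42, SE 0.092, 95% interval 0.20 to 0.64, unadjusted p = 0.00259, limma adjusted p = 0.136), which did not pass either. Of all alternatives tried, the smallest adjusted p of Cdk2 came when the genes in the lower part of the signal range, below the median, were dropped, at 0.0799 for siG9a minus Control and 0.0529 for siGLP minus siG9a.

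**Figure D2:**
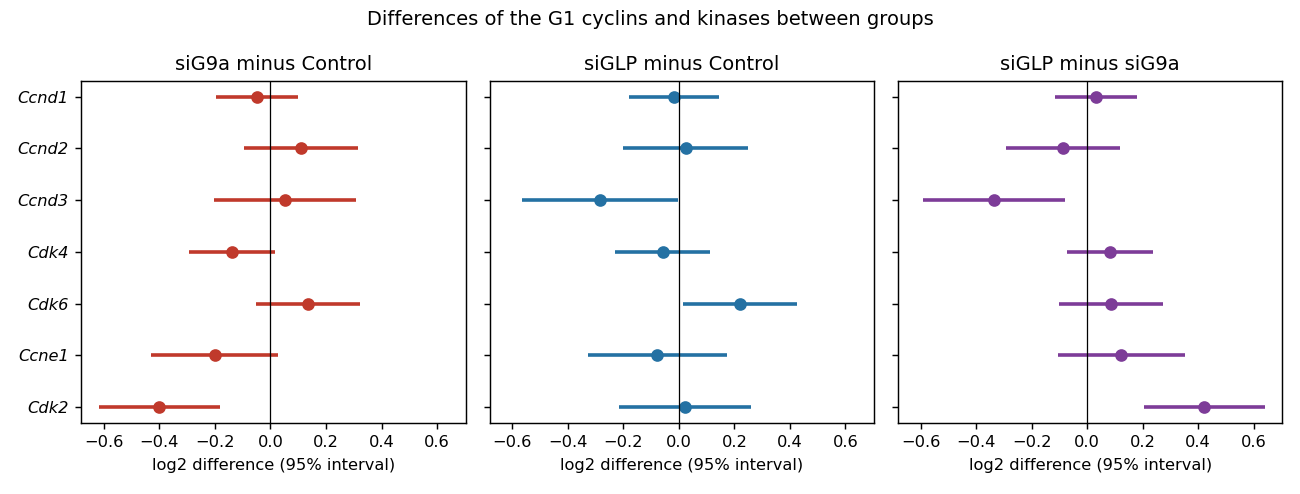
Log2 differences of the 7 genes (points) with 95% intervals from limma (lines) for each knockdown against Control and, in the last panel, for siGLP minus siG9a. In the first panel the interval of Cdk2 (-0.62 to -0.18) lies wholly below 0, in the second those of Ccnd3 and Cdk6 lie just to 1 side of 0, and in the third those of Ccnd3 and Cdk2 exclude 0. These intervals are not adjusted for the number of genes tested.

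Arrays that did not overlap between groups were common among all genes, and the count for the cyclins and kinases is read against that. In siG9a 5 of 7 did not overlap Control (4 lower: Ccnd1, Ccne1, Cdk2 and Cdk4, and 1 higher: Cdk6), where 25.7% of all genes and 35.3% of genes above the median level did not. Taken by direction, 11.7% of all genes were lower and 14% higher without overlap. Of genes above the median level 15.9% were lower and 19.4% higher. In siGLP 4 of 7 did not overlap (3 lower: Ccnd3, Ccne1 and Cdk4, and 1 higher: Cdk6), where 34.2% of all genes and 40.9% of genes above the median level did not. By direction, 16.9% of all genes were lower and 17.4% higher, and of genes above the median level 21% and 19.9%. Ccne1, Cdk4 and Cdk6 kept 1 side of Control in both knockdowns, which share the Control arrays.

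Leaving out 1 array at a time showed which arrays the differences lean on. Cdk2 in siG9a ranged from -0.47 without siG9a 2 to -0.34 without siG9a 3. Ccnd3 in siGLP ranged from -0.39 without siGLP 1 to -0.18 without siGLP 2. Cdk6 ranged from 0.047 without Control 1 to 0.22 without Control 2 in siG9a, and from 0.13 to 0.31 without the same arrays in siGLP. Ccne1 in siG9a ranged from -0.27 without siG9a 2 to -0.12 without siG9a 3. In siGLP Ccne1 ranged from -0.10 to -0.052 and Cdk4 from -0.088 to -0.028, both with the choice of Control array. None of the 7 genes passed in any comparison without any 1 array (smallest limma adjusted p = 0.157). Without some single array the sign turned for Ccnd2 in both knockdowns, for Ccnd3 in siG9a, and for Ccnd1 and Cdk2 in siGLP.

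**Figure D3:**
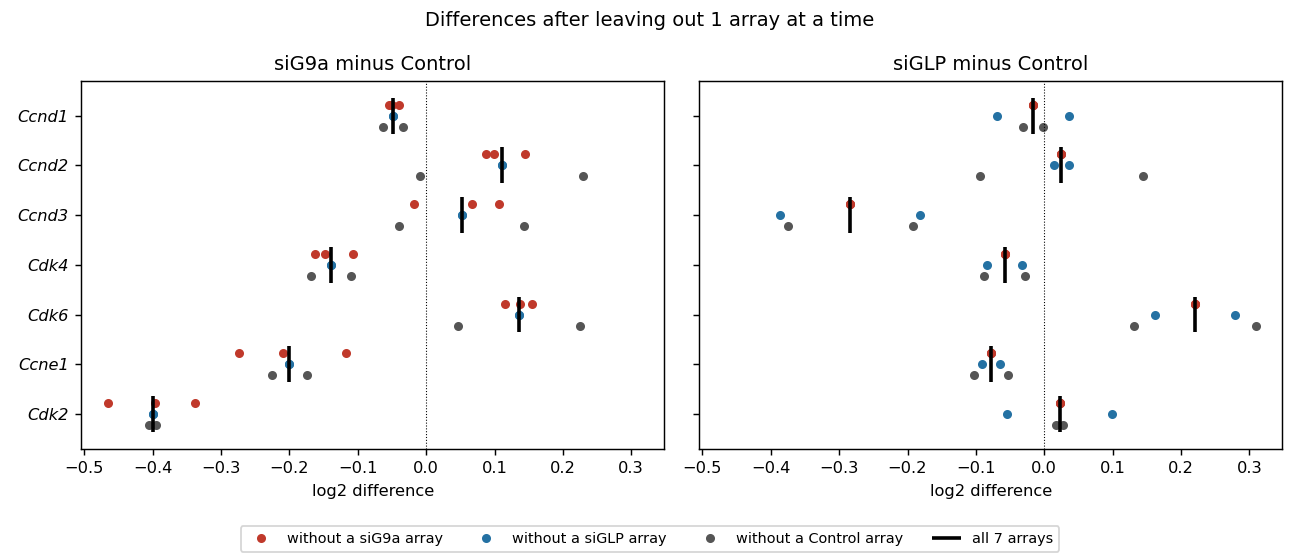
Log2 differences of the 7 genes with all arrays (black bars) and without 1 array at a time (points, coloured by the group of the array left out), for each knockdown against Control. Cdk2 in siG9a keeps between -0.47 and -0.34, while Cdk6 and Ccnd2 spread mostly with the choice of Control array.

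The genes whose pattern over the 7 arrays was most like that of Cdk2 were Ruvbl1, an ATPase of chromatin remodelling complexes (Pearson's r = 0.996), Mex3a, an RNA-binding protein (0.995), the adhesion receptor gene Adgra3 (0.988), Trip13, an ATPase of the mitotic checkpoint (0.987), and Parp1, a sensor of DNA breaks (0.984). They were the top 5 of 10315 named genes above the median level, of which 56 had an r of at least 0.95. Each lay below Control in siG9a, with log2 differences from -0.59 (Adgra3) to -0.33 (Ruvbl1), and between -0.065 and 0.023 in siGLP. For Cdk6 the 5 most alike were Gtdc1 (0.986), Cplx1 (0.979), Txndc16 (0.974), Abi1 (0.972) and Ufm1 (0.969), all with means above Control in both knockdowns, by 0.072 to 0.14 in siG9a and 0.12 to 0.27 in siGLP. The points share 3 groups of arrays, so these values describe likeness only. Because the genes were picked by likeness over these same arrays, their sides of Control follow from the choice.

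Other genes of the same pathway were counted from lists, beginning with the brakes on the kinases. The lists were chosen with earlier results of these data known, so their counts are descriptions. None of the genes of any list passed over all genes in siG9a or in siGLP against Control. Of all genes, 48% lay below Control in siG9a and 49.2% in siGLP, and 51.9% and 50.6% lay above. The counts of each list stand beside these shares. Of 7 CDK inhibitors, 5 lay above Control in siG9a and 2 in siGLP (median log2 difference 0.070 and -0.099). Without siGLP 1 the number below Control in siGLP was 3, against 5 with all arrays. At an unadjusted p under 0.05, 2 were higher and 0 lower in siG9a (all genes, 5.95% and 4.57%), and 1 was higher and 0 lower in siGLP (all genes, 4.51% and 4.13%). Cdkn1a, which encodes p21, had log2 signals of 11.64, 11.58 and 11.64 in siG9a, 11.60 and 11.48 in siGLP, and 11.34 and 11.26 in Control. All 5 knockdown arrays lay above both Control arrays, at differences of 0.33 in siG9a (SE 0.069, unadjusted p = 0.00219, limma adjusted p = 0.178) and 0.24 in siGLP (SE 0.075, limma adjusted p = 0.434). Cdkn1b, which encodes p27, stood at 0.25 in siG9a (SE 0.090, limma adjusted p = 0.398).

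The pocket proteins are the substrates of the cyclin D kinases. All 3 lay above Control in siG9a (median 0.27), where 51.9% of all genes did. In siGLP 2 of 3 did so (median 0.0066), where 50.6% of all genes did. At an unadjusted p under 0.05, 1 was higher and 0 lower in siG9a (all genes, 5.95% and 4.57%). In siGLP 0 were higher and 0 lower (all genes, 4.51% and 4.13%). The number below Control in siGLP was 1, and 2 without siGLP 2 or without Control 1. Rbl2, which encodes p130, the pocket protein of resting cells, had log2 signals of 7.80, 7.63 and 7.70 in siG9a, against 7.30 and 7.39 in Control, without overlap (difference 0.37, SE 0.078, unadjusted p = 0.00224, limma adjusted p = 0.179). Rb1 stood at 0.27 (SE 0.12, limma adjusted p = 0.499), or 0.16 without siG9a 1, and Rbl1 at 0.017, or 0.0077 without siG9a 3. Of 10 E2F and DP factors, which the pocket proteins bind, 4 lay below Control in siG9a and 6 in siGLP, and 3 were lower and 1 higher in siGLP at an unadjusted p under 0.05, where 4.13% and 4.51% of all genes were. In siG9a none was, where 4.57% of all genes were lower and 5.95% higher. In siGLP the smallest p-values belonged to E2f2 (-0.48, or -0.30 without siGLP 1, SE 0.12, limma adjusted p = 0.351), E2f3 (-0.32) and E2f8 (-0.25).

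Genes that activate the kinases or remove their inhibitors gave single members with larger differences. Of 9 genes of CDK activation, 5 lay below Control in siG9a and 7 in siGLP, or 5 without siGLP 1. Of all genes 48% and 49.2% did. At an unadjusted p under 0.05, 2 were lower and 0 higher in siG9a (all genes, 4.57% and 5.95%). In siGLP 0 were lower and 0 higher (all genes, 4.13% and 4.51%). Cdc37, the chaperone partner that delivers Cdk4 to Hsp90, had log2 signals of 9.56, 9.72 and 9.70 in siG9a, against 10.09 and 10.04 in Control (difference -0.40, SE 0.079, unadjusted p = 0.00148, limma adjusted p = 0.157). Cks1b, a small CDK-binding protein needed for the destruction of p27, stood at -0.35 in siG9a (SE 0.070, limma adjusted p = 0.162), and neither gene's arrays overlapped Control there. Of 16 genes of cyclin turnover and inhibitor degradation, 5 lay below Control in siG9a (8 without Control 1) and 6 in siGLP (8 without siGLP 2). At an unadjusted p under 0.05, 1 was lower and 1 higher in each knockdown. Skp2, the ligase subunit that recognises p27, stood at 0.20 in siG9a (SE 0.066, limma adjusted p = 0.364) and 0.31 in siGLP (SE 0.072, limma adjusted p = 0.273). On the other side of Control, Cul1 stood at -0.20 in siG9a (SE 0.067, limma adjusted p = 0.364). Gsk3b stood at -0.25 in siGLP, or -0.14 without Control 2 (SE 0.090 and limma adjusted p = 0.498 with all arrays).

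Upstream of the D-type cyclins, 20 transcription factors known to act on their genes had 9 below Control in siG9a and 11 in siGLP. At an unadjusted p under 0.05, 3 were lower and 3 higher in siG9a (all genes, 4.57% and 5.95%), and 4 were lower and 1 higher in siGLP (all genes, 4.13% and 4.51%). In siG9a the smallest p-values belonged to the NF-kB subunit gene Rela (0.30), Ets2 (-0.32) and Stat3 (0.31). In siGLP they belonged to Stat5b (-0.68, SE 0.10, unadjusted p = 0.000331, limma adjusted p = 0.184), the AP-1 subunit gene Fosl2 (-0.44, SE 0.078, limma adjusted p = 0.197) and Stat5a (-0.28). Among 29 other cyclins and CDKs, 10 lay below Control in siG9a and 14 in siGLP, and at an unadjusted p under 0.05 there were 1 lower and 3 higher in siG9a and 2 of each in siGLP. Of all genes 4.57% were lower and 5.95% higher in siG9a, and 4.13% lower and 4.51% higher in siGLP, so these counts lie near the background. Cdk8, the Mediator kinase, stood at -0.56 in siG9a (SE 0.086, unadjusted p = 0.000372, limma adjusted p = 0.116), and Ccng2, a cyclin linked to arrest, at 0.51 (SE 0.12, limma adjusted p = 0.204). In siGLP Ccna2, the S-phase cyclin that follows cyclin E, stood at -0.26 (-0.15 without siGLP 1, SE 0.089, limma adjusted p = 0.458) and Ccng1, a p53 target, at 0.25.

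Downstream, 47 genes of replication and S-phase entry that E2F factors are known to drive were measured. In siG9a 40 of 47 lay below Control, where 48% of all genes did, with a median of -0.11, and 11 of 47 were lower at an unadjusted p under 0.05, where 4.57% of all genes were. None passed over all genes. The smallest p-values belonged to Dscc1, a clamp loader subunit (-0.42, SE 0.076, limma adjusted p = 0.141), the histone chaperone gene Nasp (-0.25) and the helicase subunit gene Mcm2 (-0.23). In siGLP 24 of 47 lay below Control, where 49.2% of all genes did (median -0.015). Without 1 array this number ranged from 22 without siGLP 1 to 32 without siGLP 2, against 38 to 41 in siG9a. At an unadjusted p under 0.05, 5 were lower in siGLP, where 4.13% of all genes were. First by p there were Nasp (-0.22), Cdc45 (-0.19) and Fen1 (-0.22, or -0.11 without Control 2). In siGLP minus siG9a 36 of 47 were higher, where 48.6% of all genes were (median 0.063). The other 11 were lower, against 17 lower without siGLP 2.

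**Figure D4:**
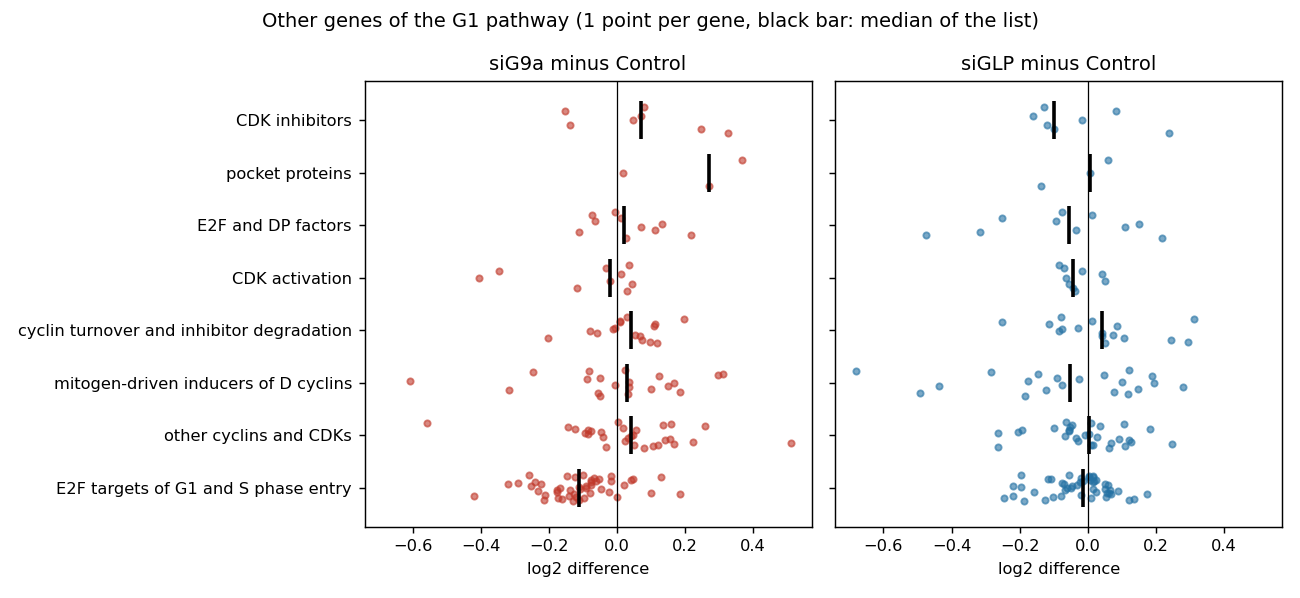
Log2 differences of the other genes of the G1 pathway in siG9a minus Control and siGLP minus Control, 1 point per gene in rows by list, with a black bar for the list's median. The median of the E2F targets is -0.11 in siG9a and -0.015 in siGLP, and that of the 3 pocket proteins is 0.27 and 0.0066.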

How the data were processed

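RNA from 7 samples of C2C12 cells was hybridised to single-colour Affymetrix whole transcript arrays, 1 per sample, from 100 ng of total RNA per the labels' protocols. The deposited values are log2 signals per probe set, made by the authors with RMA and Partek per the submitters' processing notes, without versions. RMA subtracts background and equalises the distributions of the arrays, so dim signals are compressed. The log2 scale was read from the range of the values. The array's genome build and scan dates were not used here.

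Of 33649 probe sets, 23521 had 1 gene symbol, 1814 several and 8314 none. Symbols were updated through RefSeq gene numbers (23328 matched). The probe set with the highest mean was kept for each of 22180 genes, and each of the 7 members had 1. Differences were fitted with limma 3.58.1 in R 4.3.3 (lmFit, eBayes, two-sided, 7 arrays in 1 fit, no replicate block). The threshold was a Benjamini-Hochberg adjusted p under 0.05 over all genes. The scripts were tested on simulated data.

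All members were named. From each pathway list up to 3 genes with the smallest p per comparison with Control could be named, and in addition the 5 genes most like the member with the smallest p. Members and lists were chosen with earlier results of these data known. Alternatives were other filters, normalizations, variance models, sample sets, a replicate block and probe set means. The shares of genes above the median level without overlap were added after seeing the data. Same-numbered arrays of different groups correlated at 0.0047 to 0.17 in their deviations from group means.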

Additional observations from a re-analysis of the deposited data

Results flagged for a closer look

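No cyclin or kinase of the set differed between the knockdowns past the threshold, and none had its siG9a and siGLP arrays on opposite sides of Control. Of 58 genes checked, 2 passed the test of siGLP minus siG9a, where 0.234% of all genes passed. The 58 were the cyclins and kinases, both siRNA targets and the genes with the smallest p in each pathway list. They also included the genes most like Cdk2 or Cdk6. Most were picked on these same arrays, so the share of all genes is not a like background. Ehmt2, which the siG9a siRNA targets, differed by 1.22 (SE 0.10, limma adjusted p = 0.0277). Fosl2 differed by -0.59 (SE 0.072, limma adjusted p = 0.0422), with 8.25 and 8.34 in siGLP, 8.91, 8.88 and 8.86 in siG9a, and 8.66 and 8.81 in Control. Neither gene passed without any 1 of the arrays, with adjusted p from 0.0692 to 0.224 for Ehmt2 and from 0.132 to 0.27 for Fosl2.

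Fosl2 and 7 other genes had every array of the knockdowns on opposite sides of Control. With siG9a above and siGLP below, where 1.42% of all genes lay, siGLP minus siG9a was -0.35 for Cdkn1b (limma adjusted p = 0.192), -0.41 for Rb1 (0.245), -0.69 for E2f2 (0.0768) and -0.46 for Stat3 (0.134). With siG9a below and siGLP above, where 1.06% lay, it was 0.31 for Cul1 (limma adjusted p = 0.137), 0.31 for Cdk16 (0.131) and 0.32 for Mcm2 (0.126). These 7 did not pass the test of the difference. Apart from Rb1, they were picked for small p against Control on these same arrays, which favours arrays lying wholly on 1 side of Control. Rb1 was named because its list held only 3 genes. The shares of all genes are therefore not a like background, and no excess is read from them.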

How the results depend on the processing

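No member of the set passed in any comparison under any alternative tried. The counts over all genes moved widely. In siG9a minus Control 6 genes passed, in siGLP minus Control 1 and in siGLP minus siG9a 52. Dropping genes below the 30th percentile of signal gave 30 and 171 in the first and the third, dropping those below the median gave 148, 21 and 350, and with trended and robust variance moderation 100, 23 and 304. Quantile normalization gave 16 in the first. With only the groups compared, or with the replicate block, 0 passed in each, and without variance moderation 0, 0 and 3. Without 1 array limma passed 0 to 0 in the first, 0 to 1 in the second and 0 to 0 in the third. The replicate block left no member past the threshold, and with it Cdk2 in siG9a was -0.34 (adjusted p = 0.364) and Ccnd3 in siGLP -0.28 (0.379). All same-numbered pairs correlated above 0, at 0.0047 to 0.17. Since 1 was as low as 0.0047, the numbers were not taken as pairs. Yet 5 of 6 arrays with a same-numbered array correlated best with it. In groups of 2 arrays the deviations mirror each other, so Control with siGLP gave 0.10 for both numbers. These values are therefore not independent, and they cannot settle whether the numbers are pairs.

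Signs turned for values near 0. Cyclic loess put Ccnd1 in siGLP at 0.0026. Without 1 array the ranges that crossed 0 were -0.040 to 0.14 for Ccnd3 and -0.0088 to 0.23 for Ccnd2 in siG9a, and -0.069 to 0.036 for Ccnd1, -0.094 to 0.14 for Ccnd2 and -0.055 to 0.099 for Cdk2 in siGLP. For Ccnd1 in siGLP minus siG9a it was -0.021 to 0.084. Among other pathway genes in siGLP they were -0.33 to 0.0084 for Cdkn2b, -0.0099 to 0.023 for Rbl1, -0.16 to 0.016 for Cks2 and -0.14 to 0.011 for Cdc37. Among the genes most like Cdk2 they were -0.052 to 0.044 for Ruvbl1 (0.015 with quantile normalization, 0.012 with cyclic loess), -0.047 to 0.089 for Mex3a, -0.052 to 0.098 for Adgra3, -0.18 to 0.051 for Trip13 and -0.0053 to 0.039 for Parp1 in siGLP, and among those most like Cdk6, -0.0074 to 0.24 for Ufm1 in siG9a. Adgra3 in siG9a had adjusted p = 0.044 with genes below the median dropped, and no other gene most like Cdk2 or Cdk6 passed under any alternative. Where an array left out leaves 1 in its group, that array is assumed to vary like the other groups. Why the counts move was not tested, apart from the smaller number of genes or arrays in some settings. RMA gives no detection calls, so the depth of a dim signal is unknown, and the members all lay above the upper quartile of signals.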
